A study of Homo sapiens with 3 samples.

Results

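Among the Caco-2 cells of a Caco-2/HT29 co-culture, 742 of 12734 devoted an unusually large share of their mRNA to GNRH2 while APOA4 stayed under a set limit. A cell was counted when GNRH2 made up 0.2% or more of its unique molecular identifiers (UMIs, 1 per captured mRNA molecule) and APOA4 made up under 0.2%. It also had to hold at least 1500 UMIs, at least 700 genes and at most 20% mitochondrial UMIs, and to give under 0.1% of its UMIs to 8 genes of the HT29 line (LYZ, KRT20, LCN2, CD24, CD44, CST6, TCN1 and BMP4). Cells under that 0.1% limit are called Caco-2 cells here, and the 11992 of them that were not GNRH2-high are the other Caco-2 cells. Because GNRH2, APOA4 and the 8 HT29 genes chose the cells, their values are descriptions and were given no test.

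Caco-2 and HT29 are human colorectal carcinoma lines that serve as a model of the intestinal lining, the first forming absorptive, enterocyte-like cells and the second tending toward mucus-secreting cells. The study grew Caco-2 cells of passage 8 with HT29 cells of passage 13 at a seeding ratio of 9 to 1 on porous Transwell inserts and sequenced single cells on day 23. The 2 control libraries were untreated, and the LPS library received 1 ng/ml of lipopolysaccharide from Escherichia coli O111:B4 in the apical chamber on day 22 for 24 hours. All 3 libraries share both lines and their passages. Several inserts were harvested, but which insert gave which library and whether any were seeded apart is not given in the sources used here. A p-value therefore rests on the spread between these libraries, which may be technical and which the test moderates over all genes.

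The libraries held 5811 barcodes and 33893707 UMIs for control 1, 6495 and 27934953 for control 2, and 6838 and 24185467 for LPS, of which 5093, 5307 and 5160 cells passed the limits on UMIs, genes and mitochondrial share. Any 2 libraries shared 9 to 11 barcodes, none with identical counts, and 1 of these shared barcodes belonged to a GNRH2-high cell. Since the GNRH2-high cells of a library are not replicates of each other, their UMIs were summed per library, and a level below is in CPM, the number of a gene's UMIs per 1000000 UMIs of such a sum.

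GNRH2 encodes the precursor of gonadotropin-releasing hormone II, a short peptide hormone related to the brain hormone that drives the pituitary, and its mRNA is known from many tissues outside the brain. Intestinal enterocytes mature as they leave the proliferating crypt: they lose Wnt targets and mitotic genes and gain brush border proteins, transporters and, in the small intestine, the apolipoproteins of chylomicrons, of which APOA4 is one. The rule thus rests on one gene with no settled role in this tissue and on a cap for a marker of lipid-absorbing cells.

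GNRH2 lies on chromosome 20 at 3043622 to 3045747 on the plus strand of GRCh38, and MRPS26, a protein of the small mitochondrial ribosomal subunit, follows it on the same strand at 3046052 to 3048250, with 304 bases between them. The bases upstream of both starts are shown because MRPS26, one of the markers proposed for these cells, lies next to GNRH2 on the same strand (RefSeq promoter table, GRCh38.p14, plus strand, 250 bases each, chr20:3043372-3043621 for GNRH2 and chr20:3045802-3046051 for MRPS26). Capitals in the GNRH2 sequence mark the core of a cyclic AMP response element, GACGTCA, at 66 to 60 bases before the start, and the run that holds both a TATA box, TATAAA, at 30 to 25 bases before it and, on the other strand, the overlapping CDX-type motif TTTATNG.
GNRH2: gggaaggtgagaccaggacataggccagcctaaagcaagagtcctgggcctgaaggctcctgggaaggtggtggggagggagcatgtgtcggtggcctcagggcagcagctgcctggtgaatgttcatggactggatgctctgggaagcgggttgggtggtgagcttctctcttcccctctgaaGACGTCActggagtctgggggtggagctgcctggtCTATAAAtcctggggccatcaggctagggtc
MRPS26: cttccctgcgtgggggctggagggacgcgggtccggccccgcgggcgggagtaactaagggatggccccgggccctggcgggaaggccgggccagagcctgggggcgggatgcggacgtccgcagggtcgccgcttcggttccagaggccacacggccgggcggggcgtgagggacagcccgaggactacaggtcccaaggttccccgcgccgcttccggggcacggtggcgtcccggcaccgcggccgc

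Their CpG content differed: the GNRH2 window holds 3 CpG dinucleotides, a number that 29.3% of 35116 promoter windows do not exceed, and the MRPS26 window holds 32, a number that 9.52% reach. Searched on both strands, GACGTCA occurs in 3.12% of these windows, TATAAA in 10.7% and TTTATNG in 8.93%, and none of the 3 was found in the MRPS26 window. Of the other marker genes, CKB holds the same overlapping TATAAA and TTTATNG pair, with its TATA box 69 to 64 bases before the start, and LGI4 holds none of the 3. These matches describe letters and say nothing of binding.

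GNRH2-high cells made up 3.94% of Caco-2 cells in control 1 (169 of 4289, exact 95% binomial interval 3.38 to 4.57%), 7.23% in control 2 (305 of 4216, 6.47 to 8.06%) and 6.34% in the LPS library (268 of 4229, 5.62 to 7.11%). The LPS share lay between those of the controls, whose mean was 5.59% ± 2.33 (SD, n = 2), and the share was not tested. These intervals cover counting error only. Cells that passed both limits, GNRH2 and APOA4, were steadier at 4.55%, 4.32% and 4.37% of Caco-2 cells in control 1, control 2 and LPS.

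**Figure D1:**
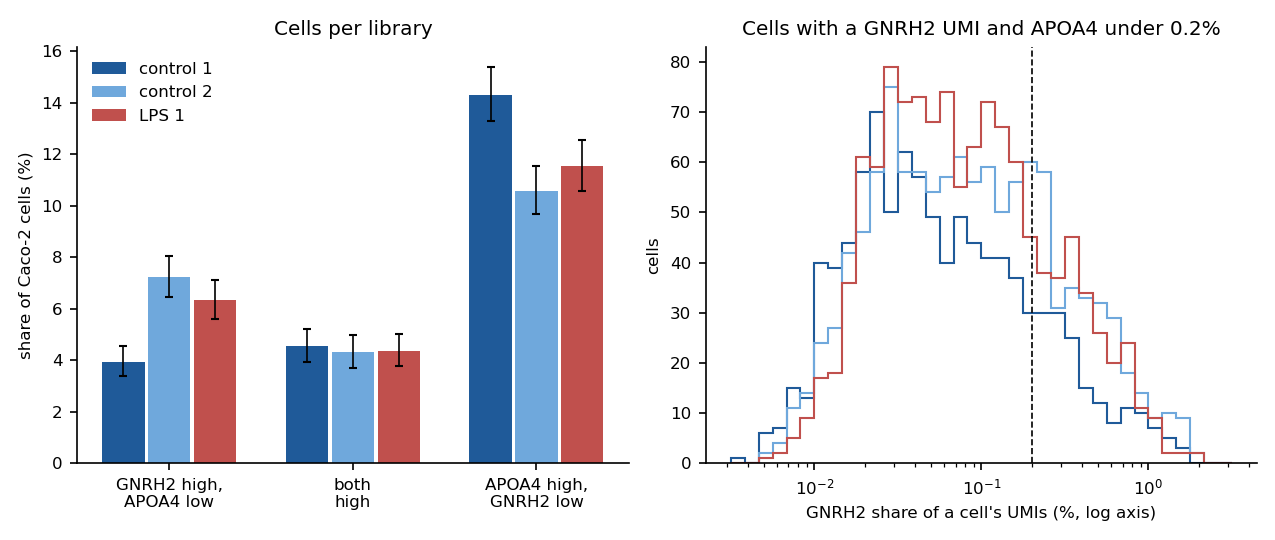
Left, share of Caco-2 cells (percent, axis from 0) in each library that were GNRH2-high with low APOA4, high in both, or APOA4-high with low GNRH2, with exact 95% binomial intervals as error bars. Right, number of Caco-2 cells with APOA4 under 0.2% against the GNRH2 share of their UMIs (log axis, cells with at least 1 GNRH2 UMI), with the 0.2% limit dashed: control 1 has the lowest GNRH2-high bar, 3.94%, and the histograms fall through the limit without a gap.

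Within the GNRH2-high cells the median GNRH2 share was 0.339% in control 1, 0.403% in control 2 and 0.379% in LPS, from a minimum at the limit to maxima of 1.58%, 3.83% and 4.70%. This corresponds to a median of 22, 18 and 14 GNRH2 UMIs per cell, and the fewest in any member was 4. The summed GNRH2 level was 4605, 4936 and 4822 CPM against 392, 422 and 469 in the other Caco-2 cells, a ratio of 11.8, 11.7 and 10.3. Together the 742 cells held 30.6%, 45.1% and 37.8% of all GNRH2 UMIs of Caco-2 cells. The cap did not leave them without APOA4: in cells thinned to 1500 UMIs it had a UMI in 39.6%, 43.9% and 33.2% of GNRH2-high cells, 32.9%, 27.7% and 29.0% of all other Caco-2 cells and 16.6%, 13.98% and 14.5% of those under the same cap, with 8.71%, 6.60% and 7.52% in cells at or above the HT29 limit. Without thinning, GNRH2-high cells had it in 63.9%, 58.0% and 53.4% against 45.2%, 36.1% and 37.2% of all other Caco-2 cells. Its summed level was 603, 436 and 413 CPM, against 1544, 1183 and 1376 in all other Caco-2 cells and 206, 151 and 156 in those under the cap.

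The limit cut a continuous distribution. Just outside it, at 0.15 to 0.2%, lay 50, 87 and 81 cells in control 1, control 2 and LPS, and just inside it, at 0.2 to 0.25%, lay 37, 71 and 51. The MRPS26 level was 688, 633 and 637 CPM just outside and 751, 819 and 735 just inside. CKB stood at 5565, 5072 and 5664 outside and 5119, 5414 and 5068 inside, LGI4 at 371, 335 and 346 outside and 283, 275 and 374 inside, and ZG16 at 235, 182 and 145 outside and 246, 246 and 150 inside. MRPS26 and ZG16 were thus somewhat higher inside in each library, whereas CKB overlapped and LGI4 was lower inside in both controls.

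When cells were chosen on a random set of UMIs, 1 part in 2 of each cell's, and measured on the remainder, the chosen cells still held GNRH2 at 4515, 4598 and 4395 CPM in the UMIs that had played no part in the choice, against 397, 424 and 471 in the rest. In cells thinned to 1500 UMIs, at least 1 GNRH2 UMI was seen in 19.5%, 22.1% and 24.4% of the other Caco-2 cells and in 5.10%, 6.87% and 7.30% of the cells at or above the HT29 limit. Without thinning, those shares were 31.2%, 33.1% and 35.2% at median depths of 5505, 4314 and 3665 UMIs, and 10.4%, 12.6% and 13.0% at 5519.5, 3868 and 3840 UMIs. Leaving out the cells high in both genes, the thinned share among other Caco-2 cells with APOA4 under 0.2% was 12.3%, 14.99% and 17.6%. Each of these shares was above that in cells at or above the HT29 limit. How much of them free RNA gives was not tested.

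Further genes of the 2 lines are given as a description, since the HT29 limit had already set these cells apart from the cells above it. A list of 18 Caco-2-associated genes, led by APOA1, the main apolipoprotein of high-density lipoprotein, summed to 16360, 12201 and 11996 CPM in GNRH2-high cells of control 1, control 2 and LPS, against 3596, 3067 and 3342 in cells at or above the HT29 limit. A list of 18 HT29-associated genes outside the rule summed to 60.4, 84.8 and 28.4 against 2966, 2845 and 2833. In LPS, 11 of those 18, among them NPSR1, KLK6 and KLK10, had no UMI in GNRH2-high cells. The other Caco-2 cells, under the same HT29 limit, summed to 14592, 11979 and 11735 CPM for the Caco-2 list. For the HT29 list they summed to 65.3, 105 and 75.5.

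GNRH2-high cells had slightly smaller libraries than the other Caco-2 cells, with medians of 5103 against 5505 UMIs in control 1, 3766 against 4314 in control 2 and 3368.5 against 3665 in LPS. They also held fewer genes at equal depth, 691, 693 and 705.5 genes in 1500 UMIs against 728, 734 and 740. Median mitochondrial shares were close, at 3.76%, 4.08% and 4.55% against 3.71%, 4.33% and 4.58%.

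Transcripts of 86 cytosolic ribosomal protein genes took 34.9%, 35.9% and 35.7% of the UMIs of GNRH2-high cells against 33.5%, 33.5% and 33.0% in the other Caco-2 cells. The share was higher in 3 of 3 libraries. Fold changes below are scaled by TMM, which assumes that most genes do not differ. With total UMIs as the scale, the median log2 fold change of all genes tested moved by -0.15, from -0.01 to -0.15.

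The genes proposed as markers of these cells were, besides GNRH2, MRPS26, ZG16, CKB and LGI4, and because they were named from these same cells their levels are given with no test. MRPS26 stood at 896, 1010 and 1031 CPM in GNRH2-high cells of control 1, control 2 and LPS, against 460, 425 and 414 in the other Caco-2 cells. ZG16, a lectin of intestinal mucus on chromosome 16 at 29778256 to 29782973, stood at 274, 224 and 228 against 113, 107 and 94.1. For both genes every GNRH2-high value lay above every value of the other Caco-2 cells, with ratios of 1.95 to 2.49 for MRPS26 and 2.10 to 2.42 for ZG16. In cells high in both GNRH2 and APOA4, MRPS26 stood at 993, 1121 and 1001, above GNRH2-high cells in both controls and below them in LPS, and ZG16 at 373, 349 and 299, above them in each library. APOA4-high cells with low GNRH2 had ZG16 at 251, 283 and 209, which overlapped the GNRH2-high values.

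CKB, brain-type creatine kinase, which shuttles energy between creatine and ATP, stood at 5615, 5976 and 5497 CPM against 3230, 2881 and 3025. LGI4, a secreted protein known from the myelination of peripheral nerves, stood at 319, 315 and 400 against 185, 175 and 217. Again no values overlapped. LGI4 was not highest in GNRH2-high cells, since it stood at 422, 487 and 557 in cells high in both GNRH2 and APOA4 and at 349, 444 and 482 in APOA4-high cells with low GNRH2. In cells thinned to 1500 UMIs, MRPS26 had a UMI in 69.2%, 67.2% and 73.9% of GNRH2-high cells against 44.2%, 40.7% and 39.1% of the other Caco-2 cells and 16.3%, 14.8% and 15.7% of the cells at or above the HT29 limit.

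Below the limit, too, the levels of MRPS26 and CKB differed with the GNRH2 share. Among Caco-2 cells with APOA4 under 0.2%, MRPS26 stood at 343, 293 and 289 CPM in cells of control 1, control 2 and LPS without a GNRH2 UMI, at 700, 637 and 593 in cells with a GNRH2 share of 0.1 to 0.2%, and at 1284, 1664 and 1243 in cells at 0.8% or more. CKB covered most of its range below the limit, from 2545, 2100 and 2284 in cells with no GNRH2 UMI to 5163, 4808 and 5032 in cells at 0.1 to 0.2%. Past the limit it rose less, to 7178, 6542 and 5870 in cells at 0.8% or more, a class of only 29, 46 and 30 cells.

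**Figure D2:**
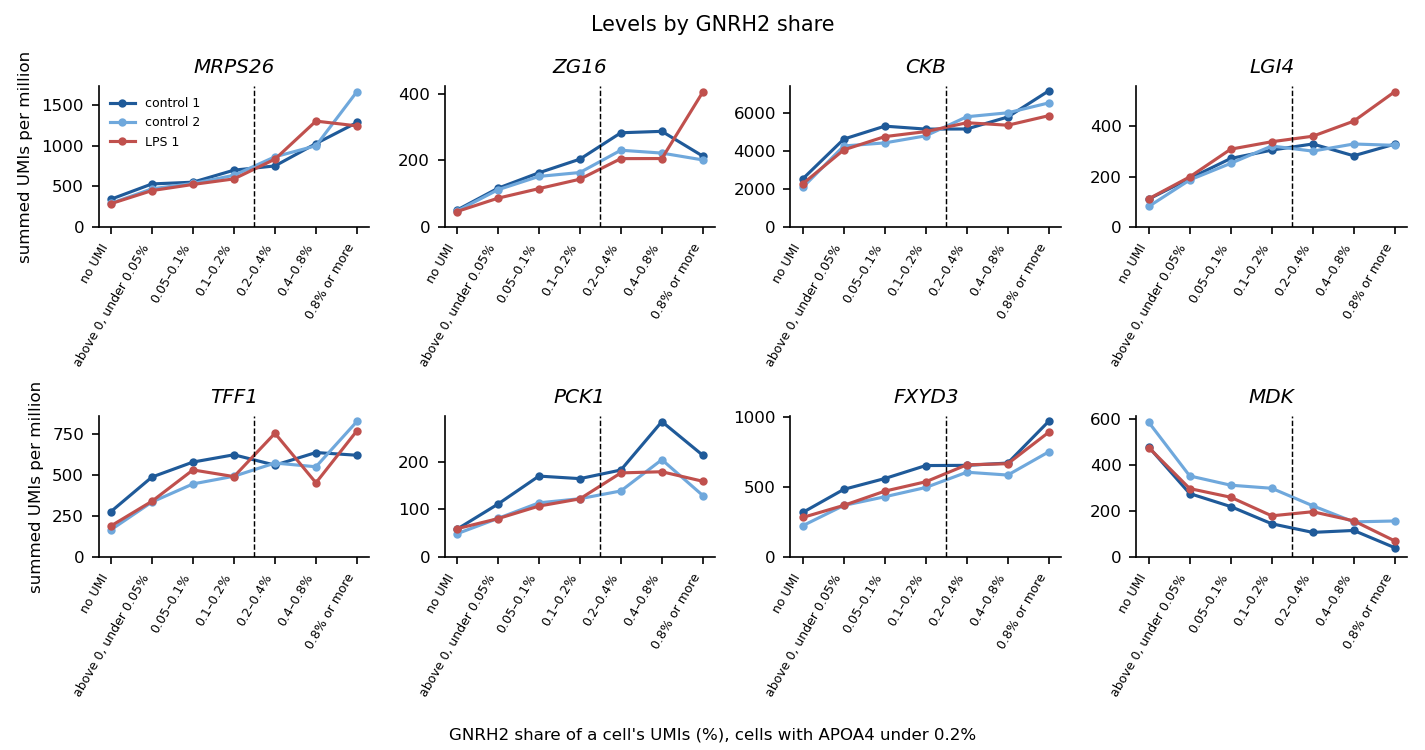
Summed CPM (y axes from 0) of 8 genes in Caco-2 cells with APOA4 under 0.2%, binned by the GNRH2 share of a cell's UMIs, with 1 line per library and the 0.2% limit dashed. MRPS26, CKB and FXYD3 stand higher in the top bin than in cells without a GNRH2 UMI in each library, with dips between neighbouring bins, and MDK stands lower, going from 477 to 41.2 in control 1, while ZG16, LGI4, TFF1 and PCK1 have no order past the limit that all 3 libraries share.

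Cell by cell, the genes whose share of UMIs followed that of GNRH2 most closely, out of 4974 genes seen in at least 10% of the control cells, were LGALS14 (Spearman's rho 0.43 in control 1 and 0.50 in control 2), LGALS3 (0.40 and 0.43), CKB (0.37 and 0.42), APOC3 (0.38 and 0.41) and MRPS26 (0.36 and 0.41). LGALS14 and LGALS3 are galectins, which bind sugars on proteins. The lowest was MDK, the growth factor midkine, at -0.30 in both controls. Cells of 1 library share its depth and background, so these values carry no p.

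Against the other Caco-2 cells, edgeR's quasi-likelihood test with the library as a block called 1268 of 13738 genes at an adjusted p under 0.05, which is 9.23%, with 787 higher (5.73%) and 481 lower (3.5%) in GNRH2-high cells. Without the library as a block it called 229, and DESeq2 called 500, of which 397 were higher. Without control 2 it called 334, and with cells chosen and measured on separate UMIs it called 761. With total UMIs as the scale the split turned, to 399 higher and 1282 lower of 1681 calls, so the balance of directions depends on the scaling. Among the calls of the main comparison that a given alternative also called, none had the opposite direction when the block, DESeq2, control 2, the choice of UMIs or the scale was changed, one at a time.

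The same cells against other Caco-2 cells with APOA4 under 0.2%, 9882 in number, form a second comparison in which the APOA4 limit holds on both sides. It called 2126 of 13534 genes, 15.7%, with 1253 higher (9.26%) and 873 lower (6.45%), or 721 higher and 2099 lower with total UMIs as the scale. Both comparisons use the same GNRH2-high sums, and a count from a list is to be read against these shares, 5.73% higher and 3.5% lower in the first and 9.26% and 6.45% in the second. In the fits that follow, a change is a log2 fold change ± a standard error derived from edgeR's test statistic. That test shares spread across genes, so the error can be smaller than a gene's own spread between the 3 libraries. The first comparison is meant unless the second is named.

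The largest rise by the rule for named genes was that of EMP1, an epithelial membrane protein, at 73.2, 88.3 and 135 CPM in GNRH2-high cells of control 1, control 2 and LPS against 40.7, 38.6 and 63.9 in the other Caco-2 cells (log2 fold change 1.21 ± 0.10, adjusted p = 8.96e-20). The groups did not overlap. Here and below a lack of overlap is a description, since genes named by the rule were chosen for a large change in 1 direction in all 3 libraries. The share of all tested genes without overlap is not given here. IGFBP2, a binding protein of insulin-like growth factors, stood at 107, 161 and 137 against 66.0, 76.5 and 80.6 (1.02 ± 0.09, adjusted p = 1.05e-18). SNHG7, a long noncoding RNA that hosts small nucleolar RNAs, had the smallest adjusted p of those named, 1.85e-29, at 1030, 1260 and 1038 against 660, 679 and 599 (0.92 ± 0.06), with no overlap between the groups.

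TFF1, a trefoil peptide of the mucus layer, stood at 586, 595 and 656 CPM against 441, 307 and 327 (0.94 ± 0.07, adjusted p = 2.10e-24). FXYD3, a regulator of the sodium pump, stood at 703, 616 and 686 against 453, 357 and 411 (0.87 ± 0.06, adjusted p = 3.42e-25), and SLC26A2, a sulfate transporter, at 441, 457 and 557 against 275, 270 and 365 (0.83 ± 0.06, adjusted p = 3.11e-22). GPA33, the A33 antigen of intestinal epithelium, and the membrane proteins TM4SF5 and MPZL2 also rose, by 0.93, 0.91 and 0.83. None of these genes had overlapping groups.

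PCK1, which makes phosphoenolpyruvate for gluconeogenesis, stood at 212, 160 and 175 against 110, 96.3 and 98.6 (0.98 ± 0.08, adjusted p = 2.13e-20). HIGD1A, a hypoxia-inducible mitochondrial protein, rose by 0.98, GPX3, a secreted glutathione peroxidase, by 0.86, and GM2A, a lysosomal activator of ganglioside breakdown, by 0.93. AKAP7, an anchor of protein kinase A, rose by 0.94 and the adaptor PAG1 by 0.81. The noncoding RNAs LINC00483 and EGFR-AS1 both rose by 0.99, and EGFR-AS1 is antisense within EGFR, whose own change of 0.28 ± 0.14 did not pass (adjusted p = 0.215). Whether reads were counted by strand was not given in the sources used here, so reads of this pair cannot be told apart with certainty. SDCBP2, also named syntenin-2, S100A1, a calcium-binding protein, and FSTL3, an inhibitor of activins, rose by 0.87, 0.78 and 0.77.

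**Figure D3:**
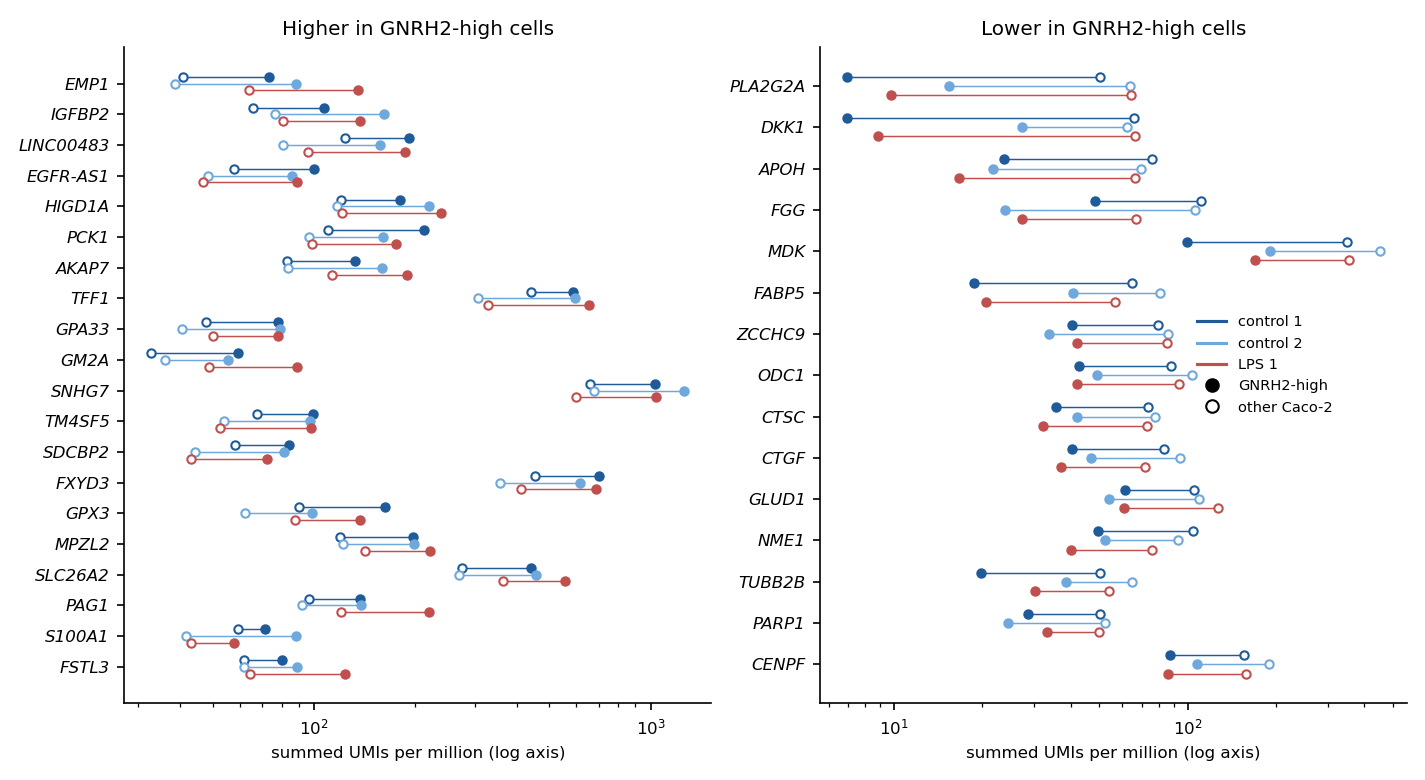
Summed CPM (log axes) of the 20 genes with the largest rise (left) and the 15 with the largest fall (right) past the threshold, in GNRH2-high cells (filled) and other Caco-2 cells (open) of control 1, control 2 and LPS, joined within each library. In each of the 35 genes the 3 libraries moved the same way, as the rule for naming them required.

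By the same rule the largest fall was that of PLA2G2A, a secreted phospholipase, at 6.93, 15.4 and 9.78 CPM in GNRH2-high cells against 50.4, 63.8 and 64.3 in the other Caco-2 cells (-2.27 ± 0.18, adjusted p = 9.79e-21). DKK1, a secreted Wnt antagonist that is itself a Wnt target, stood at 6.93, 27.3 and 8.80 against 65.5, 62.2 and 66.4 (-1.88 ± 0.17, adjusted p = 8.73e-17). MDK stood at 99.9, 191 and 170 against 350, 453 and 355 (-1.19 ± 0.08, adjusted p = 2.01e-25). The groups did not overlap for any of the 3.

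Falls also took in APOH and FGG, plasma protein genes of liver (-1.61 and -1.43), FABP5, a fatty acid binding protein (-1.15), ODC1, the first enzyme of polyamine synthesis (-0.94), CTSC, a lysosomal protease (-0.87), CTGF, a YAP target (-0.85), and GLUD1, mitochondrial glutamate dehydrogenase (-0.82). NME1, TUBB2B, PARP1, ZCCHC9 and CENPF fell by between -0.69 and -0.98. In the second comparison CRNDE, SPTSSB, CDK6 and HES6 joined the 15 largest falls, at -1.29, -1.08, -1.02 and -0.9996.

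Of 22 genes of the hypoxia response and glycolysis, 14 rose and none fell, where 5.73% of all genes rose. Their median was 0.45 against -0.01 over all genes tested. In the second comparison, where 9.26% of all genes rose, 17 rose. LDHA, which turns pyruvate into lactate, stood at 1366, 1419 and 1196 CPM against 1193, 977 and 900 (0.53 ± 0.05, adjusted p = 3.81e-14). EGLN3, an oxygen-sensing hydroxylase induced by hypoxia, stood at 27.7, 42.7 and 61.6 against 19.96, 27.8 and 27.3 (0.94 ± 0.14, adjusted p = 8.20e-08). Within every library both were higher in GNRH2-high cells.

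The 14 were spread along the pathway, with the glucose transporter SLC2A1 (0.47), the glycolytic enzymes PFKP (0.57), ALDOA (0.55), GAPDH (0.31), PGK1 (0.41), PGAM1 (0.37), ENO1 (0.43) and PKM (0.28), the mitophagy gene BNIP3 (0.55), the stress gene NDRG1 (0.64), the collagen hydroxylase P4HA1 (0.57) and ANKRD37 (0.50). ANKRD37 was lower, not higher, in control 1, at 88.1 against 111 CPM, and 124 and 158 against 90.2 and 89.9 in control 2 and LPS. VEGFA, the angiogenic factor, and CA9, a carbonic anhydrase, did not pass, at 0.06 ± 0.08 (adjusted p = 0.771) and 0.24 ± 0.28 (adjusted p = 0.711). The count of rises was 8 without control 2, 13 with DESeq2 and with total UMIs as the scale, and 4 without the library as a block. The list summed to 9524, 9811 and 9749 CPM in GNRH2-high cells and to 8752, 8097 and 7886 in the other Caco-2 cells. It summed to 10439, 11018 and 9997 in cells high in both GNRH2 and APOA4 and to 9896, 10213 and 9615 in APOA4-high cells with low GNRH2, so these transcripts were about as abundant in APOA4-high cells. Cells at or above the HT29 limit had the most, 14938, 17084 and 14288.

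Of 22 genes of G2 and mitosis, 12 were lower and none higher, where 3.5% of all genes were lower, with a median of -0.37. In the second comparison, where 6.45% of all genes were lower, 14 were lower. UBE2C, which directs mitotic proteins to degradation, stood at 154, 230 and 145 CPM against 283, 355 and 268 (-0.63 ± 0.08, adjusted p = 3.24e-11). CENPF, a kinetochore protein, stood at 87.1, 108 and 86.0 against 155, 189 and 158 (-0.69 ± 0.09, adjusted p = 4.55e-10). Neither overlapped between the groups, and the kinases PLK1 and AURKA and the cyclins CCNB1 and CCNB2 fell with them.

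Replication genes gave other counts, and the difference between the lists was not tested. Of 22 S phase genes none was lower and 2 were higher, where 5.73% of all genes were higher, RRM2, a subunit of ribonucleotide reductase (0.59 ± 0.14, adjusted p = 0.000975), and TYMS, thymidylate synthase (0.31 ± 0.09, adjusted p = 0.0175), with a median of 0.05. With total UMIs as the scale TYMS did not pass and 2 genes of the list were lower, and in the second comparison RRM2 was higher and MCM3 and HELLS were lower. Without control 2, without the library as a block or with DESeq2, no S phase gene was called. Of 9 histone genes of S phase, HIST1H4C and HIST1H1B were lower and none was higher, where 3.5% of all genes were lower. Their list summed to 1298, 1543 and 1143 CPM against 1753, 1628 and 1547. MKI67, the usual marker of cycling cells, stood at 54.4, 74.96 and 52.8 CPM against 73.7, 74.4 and 74.997 (-0.12 ± 0.11, adjusted p = 0.608), so that GNRH2-high cells matched the other Caco-2 cells in control 2 and lay under them in control 1 and LPS. Cells high in both GNRH2 and APOA4 held far less of it, 17.8, 17.8 and 11.8.

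Stem cell genes and the liver-type genes that Caco-2 cells express were mostly lower. Of 20 listed genes 13 fell and 2 rose, where 3.5% and 5.73% of all genes did, with a median of -0.69. In the second comparison, where 6.45% of all genes fell and 9.26% rose, 13 fell and 5 rose: TTR, SERPINA1, AHSG, TF and VTN. The list summed to 6036, 4055 and 4449 CPM against 5989, 5152 and 5328, so the sum was not lower in control 1. Among those that fell were ASCL2, a stem cell transcription factor (-0.57 ± 0.13, adjusted p = 0.000652), and PROX1 (-1.07 ± 0.20, adjusted p = 2.16e-05). LGR5, the classical stem cell receptor, had 1 UMI in all GNRH2-high cells, in the LPS library, and stood at 6.01, 4.08 and 4.75 CPM in the other Caco-2 cells. SMOC2, another stem cell gene, had no UMI in GNRH2-high cells and 3.23, 3.44 and 1.68 in the others.

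Against this trend rose TF, the iron carrier transferrin (0.90 ± 0.26, adjusted p = 0.0106), and VTN, the adhesion protein vitronectin (0.30 ± 0.05, adjusted p = 9.06e-06). ALB, serum albumin, fell by -0.80 ± 0.14 (adjusted p = 2.72e-06) but stood at 427 in control 1, above the 298 of the other Caco-2 cells, and at 77.1 and 77.2 in control 2 and LPS against 331 and 374. Of its 432 UMIs in control 1, 294 came from 1 cell. Without control 2, 5 stem cell and liver-type genes and 7 mitotic genes were called lower, with medians of -0.53 and -0.44.

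Of 19 genes of Wnt feedback and the DKK1-high state, 7 fell and none rose, where 3.5% of all genes fell, with a median of -0.71: besides DKK1, the YAP targets ANKRD1, CTGF and CYR61, SP5, a Wnt target, the neuropeptide GAL and UCHL1. Of 13 Notch genes none rose and 3 fell: HES1 and HES6, transcription factors of the pathway, at -0.22 and -0.88, and DLL1, a Notch ligand, with 0, 2 and 2 UMIs. Among 26 intestinal transcription factors tested, SOX4, found in immature cells, fell from 470, 497 and 447 to 270, 329 and 268 CPM (-0.56 ± 0.07, adjusted p = 3.24e-11).

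CDX2 and HNF4A, which set intestinal identity, and ID2 rose by 0.32, 0.31 and 0.35, but none of these 3 rises passed with total UMIs as the scale. In the second comparison 10 transcription factors rose, among them CDX2 and HNF4A at 0.50 each, and 3 fell. Of all genes in that comparison, 9.26% rose and 6.45% fell. HNF4A in control 2 stood at 107 CPM against 109 in the other Caco-2 cells, so its rise was not seen in that library's levels.

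**Figure D4:**
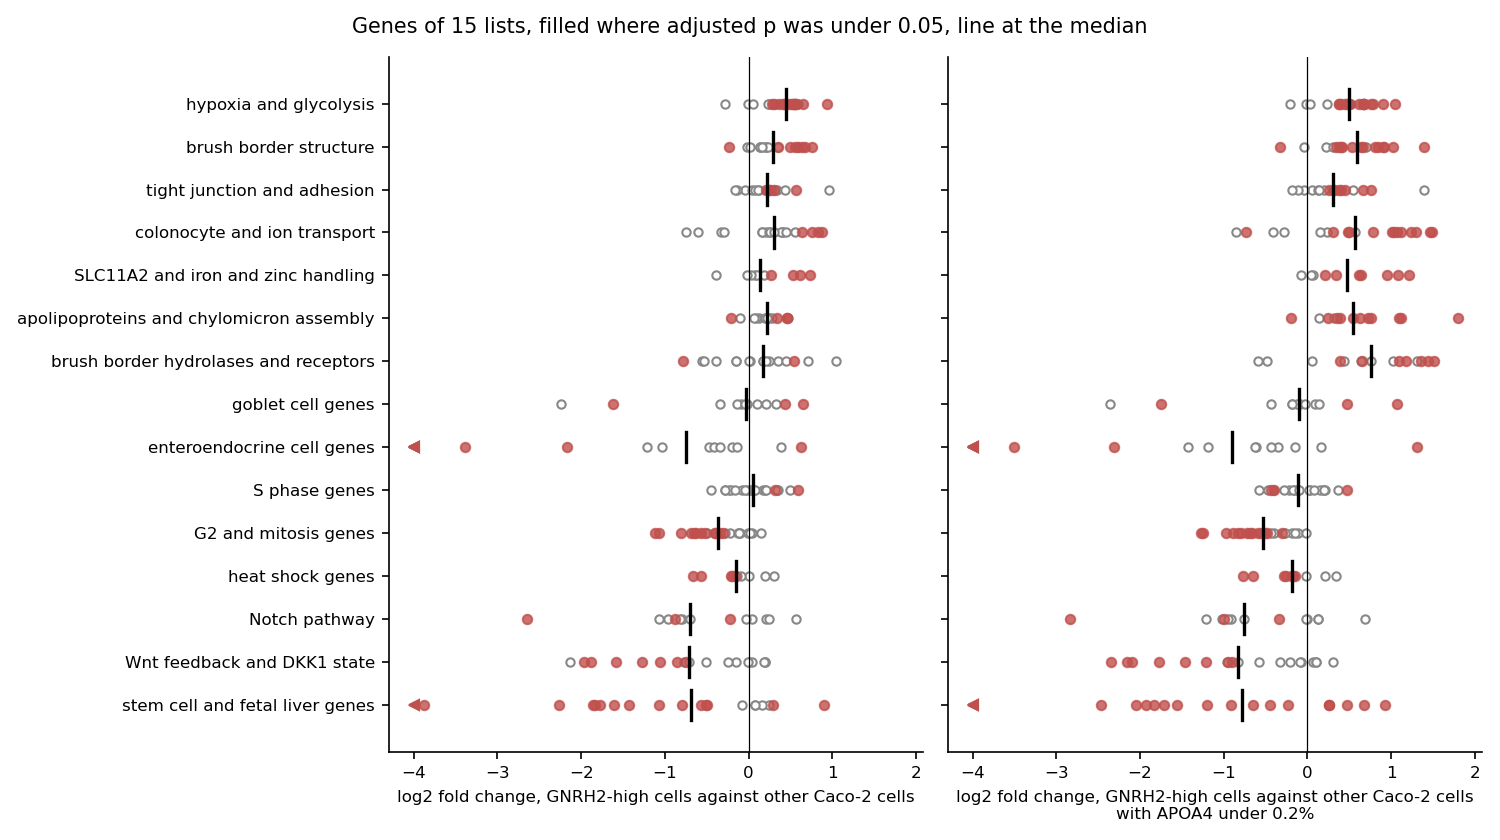
Log2 fold changes (x axis) of the tested genes of 15 lists in GNRH2-high cells against the other Caco-2 cells (left) and against those with APOA4 under 0.2% (right), with genes past the adjusted p threshold filled, medians as black bars, values under -4 drawn as triangles at -4, and the genes of the rule and the 4 further markers left out. The hypoxia and glycolysis list lies to the right of 0 in both panels and the mitosis, Wnt and stem cell lists to the left, while the brush border, ion transport and apolipoprotein lists lie farther right in the right panel.

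Enterocyte genes depended on which cells served as the comparison. Against all other Caco-2 cells, 7 of 18 brush border structure genes rose and 1 fell, where 5.73% and 3.5% of all genes did, with a median of 0.29, and against those with low APOA4 13 rose and 1 fell, where 9.26% and 6.45% did, with a median of 0.59. The 7 were MYO1A, the motor of microvilli (0.59), PLS1 (0.76) and EPS8 (0.35), which bundle and cap their actin, ANKS4B (0.67), PDZK1 (0.55), CEACAM1 (0.64) and KRT19 (0.50). The keratin KRT18 fell, from 957, 962 and 810 to 766, 725 and 619 CPM (-0.23 ± 0.06, adjusted p = 0.00200). EPS8 did not pass with total UMIs as the scale, and VIL1, villin, passed only in the second comparison (0.34 ± 0.08, adjusted p = 0.00103, and 0.16 ± 0.08, adjusted p = 0.229, in the first).

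Of 17 brush border hydrolases and receptors, the peptidase DPP4 rose (0.55 ± 0.07, adjusted p = 5.86e-10) and SI, sucrase-isomaltase, fell, at 9.89, 7.01 and 7.82 CPM against 18.1, 13.97 and 14.5 (-0.78 ± 0.25, adjusted p = 0.0331). In the second comparison 7 of 15 rose, among them the peptidase ACE, and none fell. Of 14 apolipoprotein and chylomicron genes APOC3, APOM and the lipid droplet coat PLIN2 rose and APOE fell, where 5.73% of all genes rose, whereas in the second comparison, where 9.26% did, 10 of 13 rose and APOE again fell.

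MTTP, which loads lipid onto apolipoprotein B, shows the difference: it stood at 178, 133 and 139 CPM in GNRH2-high cells, 161, 123 and 145 in all other Caco-2 cells, 96.3, 66.9 and 70.9 in cells low in both GNRH2 and APOA4, and 418, 433 and 533 in cells high in both. APOC3 followed the same order, at 4642, 3649 and 3387 in GNRH2-high cells, 2479, 1919 and 1764 in cells low in both, and 10802, 11205 and 10552 in cells high in both. By these genes GNRH2-high cells lay between the cells low in both and the cells high in both. These 4 groups were cut on GNRH2 and APOA4 themselves, so the order is a description with no test.

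Not every gene took that middle place. CKB was higher in GNRH2-high cells, at 5615, 5976 and 5497 CPM, than in cells high in both, at 4268, 3878 and 3848, and cells low in both had 3165, 2777 and 2975. IGFBP2 stood at 107, 161 and 137 in GNRH2-high cells and at 39.9, 74.8 and 48.3 in cells high in both, under the 71.7, 76.8 and 87.2 of cells low in both. SLC2A5, the fructose transporter, did take the middle place. It was called higher than in cells low in both, in the second comparison. Its level was 61.3, 58.8 and 62.6 in GNRH2-high cells and 215, 393 and 470 in cells high in both.

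Of 19 ion and water transport genes tested, SLC26A2, the aquaporins AQP10 (0.76) and AQP3 (0.88) and GUCY2C, the receptor of guanylin (0.64), rose and none fell, where 5.73% of all genes rose, and in the second comparison, where 9.26% did, 12 rose, among them SLC26A3, the chloride and bicarbonate exchanger (1.23 ± 0.14, adjusted p = 3.05e-11), and SCNN1A fell. Of 10 iron and zinc genes, SLC11A2, the importer of iron (0.61), SLC40A1, the exporter (0.27), HEPH, the oxidase that works with it (0.74), and TFRC, the transferrin receptor (0.53), rose and none fell, against the same 5.73%. HEPH stood at 91.0, 93.9 and 110 CPM against 59.8, 59.9 and 77.5, with no overlap, whereas SLC40A1 did not pass with total UMIs as the scale.

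Of the creatine genes besides CKB, those that rose were SLC6A8, the creatine transporter, at 154, 137 and 176 against 109, 98.1 and 131 CPM (0.61 ± 0.08, adjusted p = 1.03e-09) and GATM, the first enzyme of creatine synthesis (0.70 ± 0.17, adjusted p = 0.00145). GAMT, the second enzyme, fell (-0.46 ± 0.10, adjusted p = 0.000553). Of 10 heat shock genes 5 fell and none rose, where 3.5% of all genes fell, by between -0.16 and -0.66, led by HSPB1, but 1 fell without control 2 and none without the library as a block. Of 18 tight junction and adhesion genes CLDN3, CLDN4, CDH1, CDH17 and EPCAM rose, where 5.73% of all genes did, and none fell, but only CDH17 (0.57 ± 0.07, adjusted p = 3.37e-11) did so with total UMIs as the scale.

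Markers of the secretory cell types were checked because ZG16 and TFF1 are mucus proteins and GNRH2 a hormone gene. Of 15 goblet cell genes 13 passed the filter on low counts, and besides the marker ZG16, which was given no test, TFF3, a trefoil peptide (0.44 ± 0.07, adjusted p = 7.14e-08), and KLK1, a kallikrein (0.65 ± 0.07, adjusted p = 8.46e-15), were higher and MUC5AC lower. Of all genes 5.73% were higher and 3.5% lower. The rise of TFF3 came mainly from the LPS library. By its levels, given with the LPS results below, it was slightly lower in control 1 and nearly equal in control 2. The list summed to 2792, 2708 and 3055 CPM against 2656, 2605 and 2287, most of it TFF3 and AGR2. CLCA1 and ITLN1 were at 0 in every library and MUC2, the defining mucin, had 0, 4 and 11 UMIs, so the defining goblet markers were at or near 0.

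Of 26 enteroendocrine genes 14 were tested, of which 1, MLN, was higher and 4, SCG5, INSM1, SST and CLPS, were lower, where 5.73% and 3.5% of all genes were, and 11 to 19 were at 0 in a library. In GNRH2-high cells CHGA, CHGB, NEUROD1 and NEUROG3 had no UMI in any library, SCG5 had none, INSM1 had 1 and CLPS had 3, so these calls rest on few UMIs. The list summed to 178, 166 and 196 CPM against 179, 164 and 199, most of it MLN, motilin, at 147, 114 and 155 against 109, 92.3 and 93.6 (0.63 ± 0.09, adjusted p = 3.18e-09). SST, somatostatin, was called lower with 0, 1 and 2 UMIs, but its level in the other Caco-2 cells was 3.56, 0 and 52.3 CPM, high in the LPS library alone.

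The machinery of GnRH signalling was sparse. The receptor gene GNRHR had no UMI in any of the 15560 cells kept. Of 11 genes of the pathway and of peptide processing, 8 were tested and 1 was called, PAM, which amidates peptide hormones such as GnRH, at 42.5, 37.1 and 60.6 CPM against 37.4, 31.8 and 42.6 (0.46 ± 0.13, adjusted p = 0.00886). The share called over all genes was 9.23%. PAM did not pass with total UMIs as the scale. The prohormone convertase genes PCSK1 and PCSK2 had no UMI in GNRH2-high cells of any library.

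Some genes near GNRH2 on chromosome 20 were called, where 5.73% of all genes were higher and 3.5% lower. Besides MRPS26, which is a marker and was given no test, PTPRA, OXT, AVP and EBF4 were called higher and ITPA lower (-0.61 ± 0.20, adjusted p = 0.0340), among 14 neighbours that passed the filter on low counts, MRPS26 included. PTPRA, a receptor phosphatase gene that ends upstream of GNRH2 on the same strand, at 2873420 to 3039076, stood at 228, 233 and 291 CPM against 173, 149 and 188 (0.71 ± 0.07, adjusted p = 1.96e-14). Its GNRH2-high values lay above all others.

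Farther downstream lie OXT (3071620 to 3072517, plus strand), which encodes oxytocin, and AVP (3082556 to 3084724, minus strand), which encodes vasopressin, both hormones of the posterior pituitary. AVP stood at 146, 125 and 136 CPM against 103, 80.4 and 86.1 (0.74 ± 0.09, adjusted p = 3.81e-12), and OXT at 147, 112 and 128 against 114, 83.7 and 107 (0.50 ± 0.09, adjusted p = 3.32e-06). AVP did not overlap between the groups, whereas OXT did across libraries while being higher within each of the 3. In cells high in both GNRH2 and APOA4, OXT stood at 273, 220 and 261, above its level in GNRH2-high cells.

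EBF4, a transcription factor gene upstream of PTPRA, was also called (0.88 ± 0.24, adjusted p = 0.00832) on only 8, 26 and 16 UMIs. Of 29 genes of the small mitochondrial ribosomal subunit, the marker MRPS26 included, MRPS6 was higher (0.66 ± 0.08, adjusted p = 6.77e-11) and MRPS9, MRPS23 and MRPS35 were lower. In this list 24 genes were not called, and of all genes 5.73% were higher and 3.5% lower. Since MRPS26 follows GNRH2 on the same strand, a transcript that reads from one into the other cannot be told apart from separate transcripts in these counts.

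**Figure D5:**
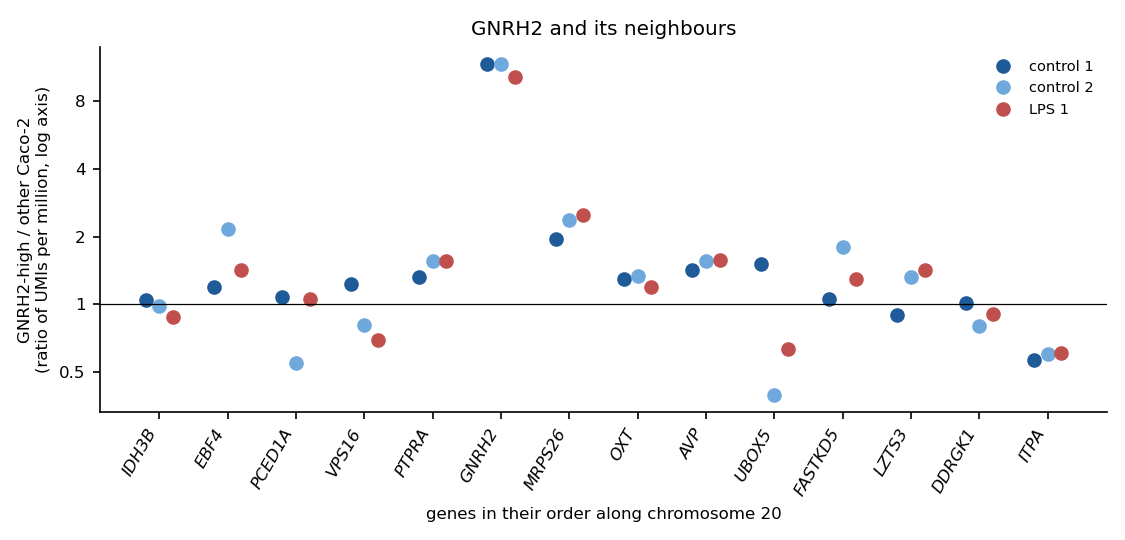
Ratio of CPM in GNRH2-high cells to that in the other Caco-2 cells (log axis, line at 1) for GNRH2 and its tested neighbours in their order along chromosome 20, with 1 point per library and SLC4A11, which had no UMI in GNRH2-high cells, left out. GNRH2 stands at 10.3 to 11.8 and MRPS26 at 1.95 to 2.49, PTPRA, OXT and AVP lie above 1 in each library, and ITPA lies below 1 in each.

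LPS changed little that could be detected in GNRH2-high cells. With 2 control sums and 1 LPS sum there was 1 residual degree of freedom, the lone LPS library being assumed to vary as the controls do, and edgeR called 2 of 8604 genes, 0.0232%, with 1 higher and 1 lower (0.0116% each), while 398 had an unadjusted p under 0.05. DESeq2 called 0. MRPS26 changed by 0.08 ± 0.17 (adjusted p = 0.982), ZG16 by -0.15 ± 0.21 (adjusted p = 0.977), CKB by -0.10 ± 0.13 (adjusted p = 0.977) and LGI4 by 0.31 ± 0.20 (adjusted p = 0.977).

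Both calls rested on few cells. FCGBP, a protein of goblet cell mucus, had 2, 22 and 67 UMIs in GNRH2-high cells of control 1, control 2 and LPS (2.71 ± 0.35, adjusted p = 1.42e-10), and the 67 came from 3 of 268 cells, 33 of them from 1 cell. Its change was 2.09 without control 1 and 5.05 without control 2, values with no test. ALB was called lower in LPS (-1.69 ± 0.25, adjusted p = 4.45e-08), but its level there, 77.2 CPM, equalled the 77.1 of control 2, and with the richest cell of each library left out it did not pass (-0.55, adjusted p = 0.9496). Of 7 tested genes among NF-kB targets and chemokines, 4 of LPS sensing and 8 interferon-stimulated genes, none was called, with medians of -0.19, 0.14 and -0.03.

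The difference of the LPS effect between GNRH2-high and other Caco-2 cells was called for 3 of 14526 genes, 0.0207%, with 2 higher (0.0138%), 1 lower (0.00688%) and 599 at an unadjusted p under 0.05. This fit of 6 sums, too, had 1 residual degree of freedom, and the spread came from the controls alone, with no replicate of LPS. The calls were FCGBP (3.16 ± 0.33, adjusted p = 3.18e-17), ALB (-1.70 ± 0.19, adjusted p = 5.17e-15) and TFF3 (0.88 ± 0.12, adjusted p = 4.47e-10). Each was lost under some alternative: FCGBP with a GNRH2 limit of 0.4% (1.47, adjusted p = 1.0), ALB with the richest cell left out (-0.68, adjusted p = 0.865) and with DESeq2 (-1.44, adjusted p = 0.9999), and TFF3 with a limit of 0.4% (0.63, adjusted p = 0.382) and with separate UMIs (0.57, adjusted p = 0.806). TFF3 stood at 1210, 990 and 1394 CPM in GNRH2-high cells and at 1218, 959 and 772 in the other Caco-2 cells. In GNRH2-high cells the LPS value was above both controls, and in the other Caco-2 cells it was below both.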

How the data were processed

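Single cells of 2 control libraries and 1 LPS library were profiled with droplet 3' RNA-seq. The authors mapped reads to GRCh38 with Cell Ranger, and the deposited files hold whole-number UMI counts of 33538 genes per barcode, with version 3.1.0 named in the matrix header. Results of some genes are not reported here. No column of the files was left unread, and no label gives a batch or date. The limits on cells were those stated in the report, with HT29-line cells taken out by their 8 genes. Doublets were not removed in the main analysis. Scrublet, run in scanpy 1.11.5, called 0, 0 and 1 cells by its own threshold, and whether that threshold suited these libraries was not tested. Removing the 6% with the highest score, 14, 17 and 11 GNRH2-high cells in control 1, control 2 and LPS, served as an alternative.

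Counts were summed per library and cell group and fitted with edgeR 4.0.16 (R 4.3.3) by glmQLFit and glmQLFTest, with TMM factors and filterByExpr. The library was a block in both comparisons of cell groups and in the interaction with LPS, since the sums of a pair come from 1 library, and could not be one in LPS against control. P-values were adjusted by the Benjamini-Hochberg method over all genes tested except the 10 genes of the rule, with a threshold of 0.05. The cells were split on GNRH2 and APOA4, so genes that vary with either follow the split. Intervals cover counting error only.

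The members, the gene lists and the comparisons were chosen with earlier results of these data known. Named genes were the 20 largest rises and 15 largest falls past the threshold with 1 direction in all 3 libraries and at least 50 CPM in the higher group of each, the members of the lists, the 5 genes most correlated with GNRH2, and, for LPS, the largest changes called. Alternatives were other limits on GNRH2, APOA4 and the HT29 genes, the study's stricter minimums for control 1 (2250 UMIs and 770 genes), doublet removal, separate UMIs for choosing and measuring, thinning to 1500 UMIs, RLE factors, DESeq2 1.42.0, no filter on low counts, no block, and each library left out. Leaving out the richest cell of each gene and scaling by total UMIs were chosen after seeing the data. Python 3.11.15, numpy 2.4.6, scipy 1.17.1 and pandas 2.3.3 were used.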

Additional observations from a re-analysis of the deposited data

Results flagged for a closer look

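The interaction term of edgeR's quasi-likelihood fit was called for 3 genes, in 1 LPS library against 2 controls, so that the controls alone gave the spread, on 1 residual degree of freedom, and a difference of the LPS effect cannot be told apart from one of that library. FCGBP differed by 3.16 on the log2 scale, with 2, 22 and 67 UMIs in GNRH2-high cells of control 1, control 2 and LPS, and by 1.47 (adjusted p = 1.0) with a GNRH2 limit of 0.4%. ALB differed by -1.70, and by -0.68 (adjusted p = 0.865) with the cell holding most of its UMIs left out of each group, and by -1.44 (adjusted p = 0.9999) with DESeq2. TFF3 differed by 0.88, and by 0.79 with that cell left out, whereas with cells chosen and measured on separate UMIs the difference was 0.57 (adjusted p = 0.806), and with a limit of 0.4% it was 0.63 (adjusted p = 0.382).

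A GNRH2 signal was also present in cells that entered none of the tests above, those at or above the HT29 limit. There, GNRH2 reached 0.2% of UMIs in 7 of 804 cells in control 1 (0.871%, exact 95% binomial interval 0.351 to 1.79%), 12 of 1091 in control 2 (1.10%, 0.570 to 1.91%) and 22 of 931 in LPS (2.36%, 1.49 to 3.56%). The LPS share was above both controls, and the difference was not tested. Whether these are HT29-line cells or droplets with cells of both lines was not tested.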

How the results depend on the processing

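The mean control share of 5.59% and the LPS share of 6.34% became 9.56% and 11.7% with a GNRH2 limit of 0.1%, 2.62% and 2.88% with 0.4%, and 10.0% and 10.7% with no APOA4 limit. Leaving out a control, the control share ranged from 3.94 to 7.23%. The 1268 genes called against the other Caco-2 cells became 2030 with the 0.1% limit, 553 with 0.4%, 761 with separate UMIs, 386 with cells thinned to 1500 UMIs, 500 with DESeq2, 229 with no replicate block and 4277 with no APOA4 limit, and ranged from 334 (without control 2) to 1076 over the fits that left out a library, with 845 without LPS. The 2126 called against those with low APOA4 became 1011 with 0.4%, 1311 with separate UMIs, 830 with thinned cells, 950 with DESeq2 and 908 with no replicate block, and ranged from 1119 (without control 2) to 1701. For LPS against control, the 2 calls became 6 with the 0.1% limit and 0 with separate UMIs, with DESeq2 and with all 6 sums in 1 fit. For the difference of the LPS effect, 3 became 5 with the 0.1% limit. The causes were not tested. No paired analysis was possible for LPS against control, since there was 1 LPS library and no label pairs it with a control. The fits without a control could not be made with a test there.

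Of 7693 values of named results under 18 alternatives, 6255 kept direction and, where there was a test, the call, 1418 kept direction only and 20 changed sign. Against the other Caco-2 cells these were, with no APOA4 limit, KHK (0.19), AFP (0.0864), TYMS (-0.15), S100A9 (0.18), UGT2B17 (1.08) and GSTA1 (0.48), with the 0.1% limit HIST1H4C (0.0110), IFITM2 (0.18) and FABP7 (0.29), with 0.4% TRAF6 (-0.0275), and with the richest cell left out CD36 (-0.54). Against those with low APOA4 they were, with thinned cells, EBF4 (-0.0415) and DGAT2 (-0.0210), CD36 with the richest cell left out (-0.52), AFP without control 2 (0.0188, with -0.45 without control 1), FTH1 with 0.4% (-0.0020), MT-ND2 (-0.0019) and MT-CO2 (-0.0633) with total UMIs, and FABP7 with the 0.1% limit (0.0436). ALB under LPS was 0.0034 without control 1 and -2.47 without control 2. With a median of 3368.5 UMIs per GNRH2-high cell, the LPS library was the shallowest of the 3.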

Other observations

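GSTA1 and KHK, genes of xenobiotic and fructose metabolism, were lower in GNRH2-high cells. GSTA1, a glutathione transferase, stood at 44.5, 7.71 and 4.89 CPM in control 1, control 2 and LPS against 86.2, 45.5 and 41.6 in the other Caco-2 cells (-1.55 ± 0.17, adjusted p = 1.02e-12 by edgeR's quasi-likelihood test), and KHK, ketohexokinase, at 5.94, 2.80 and 6.84 against 15.8, 13.2 and 11.3 (-1.30 ± 0.31, adjusted p = 0.00129). With members chosen without the APOA4 limit, the changes of both genes had the opposite sign, at 0.48 and 0.19.

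The counts that follow are to be read against the 5.73% of all genes that were higher and the 3.5% that were lower. Of 13 genes of the mitochondrial genome's respiratory chain, 5 were higher and none lower, but with total UMIs as the scale 2 were higher and 3 lower. Of 20 genes of cholesterol and fatty acid synthesis, 4 were higher and 2 lower, and 2 and 8 on that scale. Of 11 MHC class I genes HLA-C and B2M were higher, and of 20 interferon-stimulated genes IFITM2 and IFITM3 were called lower on at most 7 UMIs in a library.

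A pair of T cell receptor genes was higher, CD3G and CD3E, neighbours of MPZL2 on chromosome 11 and noticed after the values were seen. CD3G stood at 43.5, 36.4 and 37.2 CPM against 18.3, 15.8 and 21.4 (1.24 ± 0.15, adjusted p = 4.84e-11 by edgeR), with no overlap between the groups. CD3E had 2, 9 and 11 UMIs, and in control 1 its level of 1.98 was below the 3.23 of the other Caco-2 cells. In a list of 13 immune, stromal and endothelial genes, 4 were tested and CD3E alone was called, 7 or 8 were at 0 in a library, and the leukocyte marker PTPRC had no UMI in GNRH2-high cells of any library.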
